A study of Homo sapiens with 4 samples.

Results

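The data concern 10 genes of the actin cytoskeleton that are targets of serum response factor, taken by symbol out of the 23228 genes in the count files, and all 10 were found there. They were ACTB and ACTG1 (the cytoplasmic beta and gamma actins), ACTA2 (smooth muscle alpha actin), TAGLN (transgelin), CNN1 and CNN2 (calponins), MYL9 (a myosin regulatory light chain), TPM1 and TPM2 (tropomyosins) and VCL (vinculin). RNA-seq had been run on A673, a human Ewing sarcoma line with an EWSR1-FLI1 fusion, grown in DMEM with fetal bovine serum and transfected with RNAiMAX. The groups were FAT4 siRNA (siFAT4) at 24 h, FAT4 siRNA at 48 h, control siRNA (scramble_siRNA) at 24 h and control siRNA at 48 h, with 1 library each, so no value has a replicate culture behind it. FAT4 is an atypical cadherin, and the comparison asks which transcripts differ when its messenger RNA is lowered.

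Serum response factor (SRF) binds a short promoter element called the CArG box and works with one of a pair of cofactor families. Myocardin-related transcription factors (MRTFs) are held in the cytoplasm by monomeric actin and move to the nucleus when actin polymerises, so actin and its binding proteins are produced in answer to the state of the filaments. Ternary complex factors answer to MAP kinase signalling and lead SRF to immediate early genes. In Ewing sarcoma cells the EWSR1-FLI1 fusion is known to dampen MRTF and YAP target genes of the cytoskeleton.

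A consensus CArG box, with no mismatch allowed, was found in 2 of the 9 promoter windows that RefSeq (GRCh38.p14) gave for 7 of the 10 genes. The windows ran from 250 bases before to 50 bases after a start site, and a box is the same motif on both strands. Boxes that depart from the consensus were not counted, and the known CArG boxes of the ACTA2 promoter are of that kind. Of all 35116 such windows, 1.29% held a box, as did 14 of 68 windows of other contractile SRF targets. ACTB, TAGLN and MYL9 had no window. The windows with a box belonged to ACTG1, with the box beginning 94 bases before the start site, and to CNN2, with the box beginning 89 bases before it. They are shown because ACTG1 and CNN2 are among the genes whose levels changed below. CNN2 was called with the siRNA and with time, and ACTG1 with time only. Capitals mark the box, whose part in these changes was not tested. The ACTG1 window lies at chr17:81512750-81513049 on the minus strand and the CNN2 window at chr19:1026358-1026657 on the plus strand.
ACTG1: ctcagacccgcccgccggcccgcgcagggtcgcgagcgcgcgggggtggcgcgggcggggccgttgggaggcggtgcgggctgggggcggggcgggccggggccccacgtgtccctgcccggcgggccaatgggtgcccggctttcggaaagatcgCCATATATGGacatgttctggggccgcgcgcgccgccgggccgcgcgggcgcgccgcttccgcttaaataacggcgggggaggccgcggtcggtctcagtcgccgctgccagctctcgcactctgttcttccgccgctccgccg
CNN2: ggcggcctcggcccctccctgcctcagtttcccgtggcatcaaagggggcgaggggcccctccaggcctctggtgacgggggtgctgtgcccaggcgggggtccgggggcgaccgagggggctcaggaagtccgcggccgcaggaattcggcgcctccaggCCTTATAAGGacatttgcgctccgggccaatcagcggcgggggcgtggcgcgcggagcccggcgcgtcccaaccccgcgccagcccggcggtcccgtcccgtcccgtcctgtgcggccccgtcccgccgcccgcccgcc

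Gene counts per library totalled between 15196813 and 22625833, and 13712 genes passed the filter on low counts. FAT4 had 71.8 CPM with FAT4 siRNA at 24 h and 60.2 CPM with FAT4 siRNA at 48 h, against 165 CPM with control siRNA at 24 h and 149 CPM with control siRNA at 48 h. CPM here are counts scaled to library size after adjustment by the trimmed mean of M values (TMM). Of 7 Ewing sarcoma markers, 6 were present, with summed levels of 720 to 972 CPM with FAT4 siRNA and 928 to 983 CPM with control siRNA, and CD99 was listed at 0 in all 4. Reads that fit more than 1 place were set aside by the counter, so a count of 0 need not mean that CD99 was absent from the cells. Of the wider Ewing list of 10 genes 9 were tested, of which 2 were called higher and 3 lower with the siRNA. Of all genes tested 11.9% were called higher and 14.1% lower. The part of the Ewing genes in the results below was not tested. Of smooth muscle genes, MYH11, DES, LMOD1, SMTNL2 and MYOCD summed to 0.135 to 0.384 CPM with FAT4 siRNA and 0.224 to 0.348 CPM with control siRNA, with DES at 0. Those of skeletal muscle summed to at most 0.199 CPM, with MYOD1, MYOG and MYF5 at 0, and of 7 genes of blood, endothelium and epithelium only KRT18 reached 1 CPM. In these bulk libraries fewer cells that express a gene and less RNA per cell cannot be told apart.

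The 10 genes together held 0.472% of gene counts with FAT4 siRNA at 24 h and 0.372% with FAT4 siRNA at 48 h, against 0.466% with control siRNA at 24 h and 0.412% with control siRNA at 48 h. ACTB and ACTG1 made up 77.6% to 83.5% of that sum. Per kilobase of the longest protein-coding transcript, ACTB stood highest, with 955 to 1256 CPM per kb over the 4 libraries, followed by ACTG1 at 450 to 722 and VCL at 90.3 to 104. The ranges of these 3 genes did not overlap. TPM2 (32.5 to 42.7 CPM per kb), CNN2 (22.1 to 39.9) and ACTA2 (19.9 to 27.4) followed, and each overlapped its neighbour. TAGLN lay between 3.33 and 10.9 CPM per kb and overlapped TPM1, which lay between 4.43 and 5.84. MYL9 and CNN1 were near the floor, at 0.0227 to 0.270 and 0.0366 to 0.311 CPM per kb. With the median transcript length in place of the longest, CNN2 came before TPM2 TPM1 before TAGLN and CNN1 before MYL9, and the mean of ACTB was 3025 in place of 1126 CPM per kb.

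**Figure D1:**
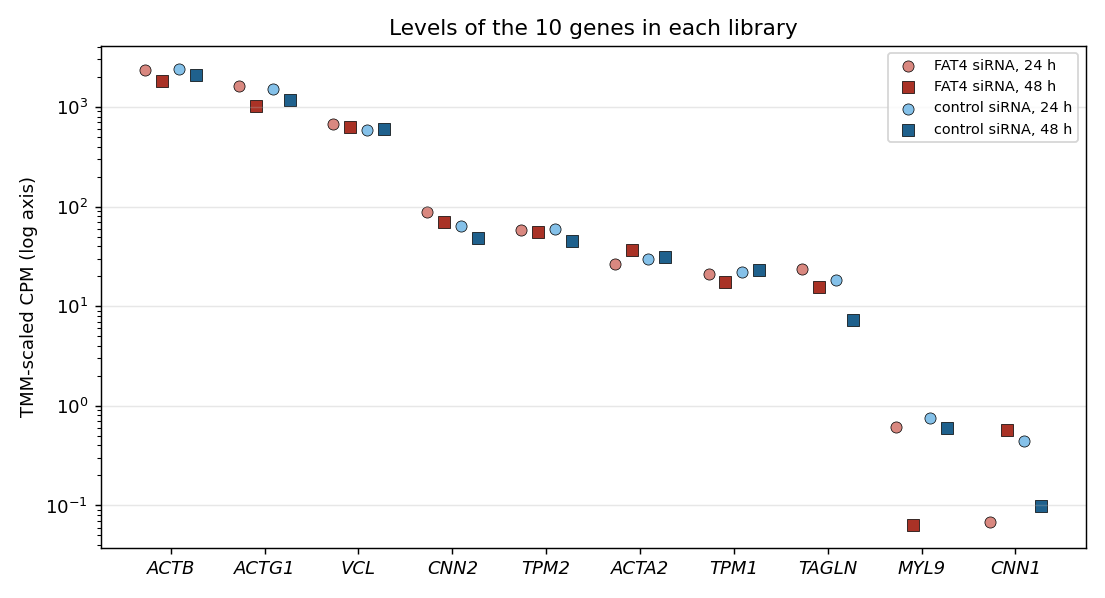
TMM-scaled CPM on a log axis for each of the 10 genes in each library, 1 point per library, with circles for 24 h and squares for 48 h. ACTB, ACTG1 and VCL lie above the other 7 genes in all 4 libraries, MYL9 and CNN1 lie below 1 CPM, and the points of TAGLN are the most spread among the 8 genes above 5 CPM.

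The siRNA comparison asked whether the 10 genes differed between FAT4 siRNA and control siRNA over both times. TAGLN and CNN2, which both encode calponin-homology proteins that bind actin filaments, rose. The cytoplasmic actins, smooth muscle actin, the tropomyosins and vinculin did not pass the test. Thus 2 of the 10 genes were called higher and 0 lower by edgeR's quasi-likelihood test at an adjusted p under 0.05, where 11.9% of all genes tested were called higher and 14.1% lower. At an unadjusted p under 0.05 also 0 were lower, and DESeq2 called 2 higher and 0 lower. Their median log2 fold change was 0.09, against -0.01 over all genes tested. The fit had 1 residual degree of freedom, and its p-values measure the spread of single libraries around additive effects, not that between cultures. Without the time term edgeR called neither TAGLN (log2 fold change 0.63, adjusted p = 0.590) nor CNN2 (0.49, adjusted p = 0.377).

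TAGLN encodes transgelin, a filament-bundling protein of smooth muscle and fibroblasts. It had 350 counts with FAT4 siRNA at 24 h and 245 with FAT4 siRNA at 48 h, against 405 with control siRNA at 24 h and 145 with control siRNA at 48 h. These were 23.7 and 15.7 CPM with FAT4 siRNA, against 18.1 and 7.21 CPM with control siRNA. FAT4 siRNA was the higher of each pair, yet control 24 h lay above FAT4 siRNA 48 h, so the groups overlap across times. Over control, the FAT4 siRNA level gave a ratio of 1.31 at 24 h (95% counting interval 1.13 to 1.51) and 2.17 at 48 h (1.76 to 2.69). Over both times TAGLN rose by 0.71 on the log2 scale (SE 0.152, edgeR adjusted p = 5.67e-05, higher in both pairs of libraries). Exons of PCSK7 overlap TAGLN on the opposite strand in GENCODE, and whether the counting used strand is not given. PCSK7 itself had a log2 fold change of -0.25 and was not called (edgeR adjusted p = 0.109).

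CNN2 encodes calponin 2, an actin-binding regulator of contractility found outside muscle. Its counts were 1295 with FAT4 siRNA at 24 h and 1090 with FAT4 siRNA at 48 h, against 1412 with control siRNA at 24 h and 975 with control siRNA at 48 h. On the CPM scale it had 87.6 and 69.7 with FAT4 siRNA, against 63.2 and 48.4 with control siRNA, so that the groups did not overlap. The ratio was 1.39 at 24 h (1.28 to 1.496) and 1.44 at 48 h (1.32 to 1.57). CNN2 rose by 0.50 on the log2 scale over both times (SE 0.104, edgeR adjusted p = 3.17e-05, higher in both pairs). GENCODE names 11 pseudogenes after CNN2, and reads that fit more than 1 place were set aside by the counter, so its level is uncertain. Exons of AC011558.1 overlap CNN2 on the opposite strand.

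Of the cytoplasmic actins, ACTB had 2325 and 1834 CPM with FAT4 siRNA at 24 h and 48 h, against 2414 and 2079 CPM with control siRNA. FAT4 siRNA lay lower within each pair, with ratios of 0.963 at 24 h (0.950 to 0.976) and 0.882 at 48 h (0.869 to 0.895). The log2 fold change over both times was -0.12 (SE 0.0886, edgeR adjusted p = 0.346). The narrow counting intervals of these abundant genes exclude 1 at ratios that the fit did not call.

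ACTG1 had ratios between single libraries on opposite sides of 1 at the 2 times, and this difference was not tested. It had 1629 CPM with FAT4 siRNA at 24 h against 1526 CPM with control siRNA at 24 h, a ratio of 1.07 (1.05 to 1.08). At 48 h it had 1015 CPM with FAT4 siRNA against 1185 CPM with control siRNA, a ratio of 0.856 (0.839 to 0.874). Over both times the log2 fold change was -0.06 (SE 0.0882, edgeR adjusted p = 0.637), and it turned to 0.04 when GC content and length were modelled. GENCODE names 10 pseudogenes after ACTB and 20 after ACTG1, and the genes also resemble each other in coding sequence. Reads that fit more than 1 place were set aside by the counter, so the levels of both genes are uncertain.

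ACTA2, the actin of smooth muscle and of contractile fibroblasts, was detected in all 4 libraries. MYH11, DES and LMOD1 were near 0 in them, whereas SMTN, the smooth muscle protein smoothelin, had 17.6 and 24.3 CPM with FAT4 siRNA at 24 h and 48 h, against 21.5 CPM at each time with control siRNA. ACTA2 had 26.8 and 36.9 CPM with FAT4 siRNA at 24 h and 48 h, against 29.8 and 31.3 CPM with control siRNA. Its ratio was 0.899 at 24 h (0.791 to 1.02) and 1.18 at 48 h (1.05 to 1.32), and the log2 fold change over both times was 0.05 (SE 0.126, edgeR adjusted p = 0.826). Exons of FAS and ACTA2-AS1 overlap ACTA2 on the opposite strand.

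Vinculin, which couples integrin and cadherin adhesions to actin filaments, had 678 and 625 CPM with FAT4 siRNA at 24 h and 48 h, against 586 and 600 CPM with control siRNA. VCL was the higher with FAT4 siRNA within each pair, and the groups did not overlap. The ratio was 1.16 at 24 h (1.13 to 1.19) and 1.04 at 48 h (1.01 to 1.07). The log2 fold change of 0.13 (SE 0.0881, edgeR adjusted p = 0.268) did not pass the test. Exons of AP3M1 overlap VCL on the opposite strand.

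Tropomyosins lie along the actin filament and govern the access of myosin and cofilin. TPM1 had 20.9 and 17.5 CPM with FAT4 siRNA at 24 h and 48 h, against 21.8 and 23.1 CPM with control siRNA, with ratios of 0.957 (0.827 to 1.11) and 0.758 (0.651 to 0.882). TPM2 had 58.4 and 55.6 CPM with FAT4 siRNA, against 59.5 and 45.3 CPM with control siRNA, with ratios of 0.982 (0.901 to 1.07) and 1.23 (1.12 to 1.35). At 48 h the ratios of these paralogs thus lay on opposite sides of 1, beyond counting error, and at 24 h both intervals included 1. Over both times TPM1 had a log2 fold change of -0.23 (SE 0.140, edgeR adjusted p = 0.226). TPM2 had 0.13 (SE 0.109, edgeR adjusted p = 0.390). Gene counts do not separate the muscle and nonmuscle isoforms of either gene. Exons of TPM1-AS and AC079328.2 overlap TPM1 on the opposite strand.

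MYL9 and CNN1, which are most abundant in smooth muscle, were barely detected. MYL9 had 9 and 1 counts with FAT4 siRNA at 24 h and 48 h, against 17 and 12 with control siRNA. CNN1 had 1 and 9 counts with FAT4 siRNA, against 10 and 2 with control siRNA. In these libraries 3 counts, taken as the floor, equalled 0.133 to 0.197 CPM. At this depth CNN1 had no common direction, with ratios of 0.151 (0.00348 to 1.06) at 24 h and 5.79 (1.20 to 55.1) at 48 h. For MYL9 the ratios were 0.800 (0.314 to 1.90) and 0.107 (0.00251 to 0.725), and neither gene passed the test (edgeR adjusted p = 0.222 for MYL9 and 0.875 for CNN1).

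**Figure D2:**
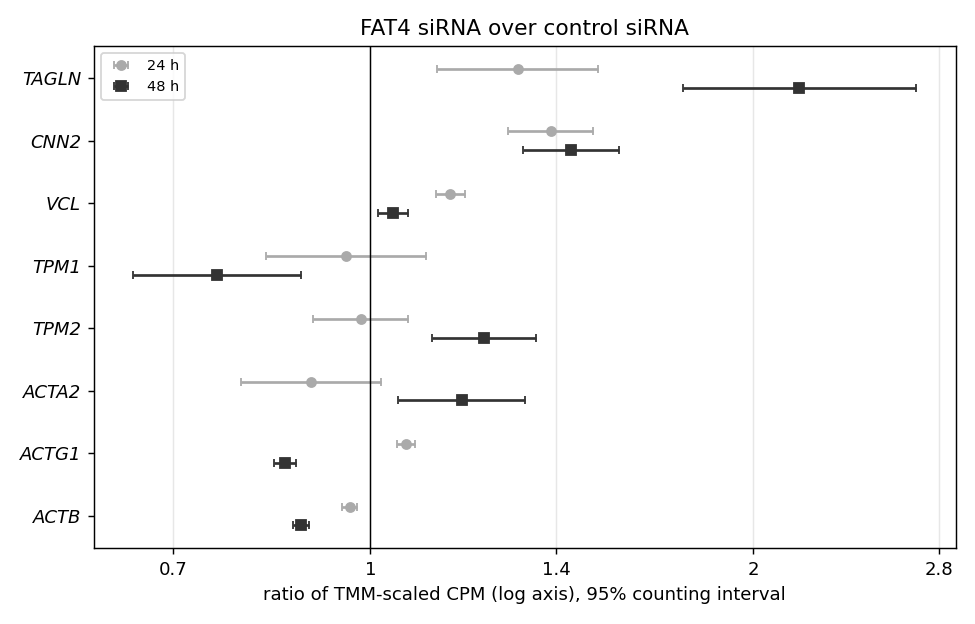
Ratio of FAT4 siRNA to control siRNA in TMM-scaled CPM on a log axis, at 24 h (circles) and 48 h (squares), for the 8 genes above 5 CPM. Bars are exact 95% counting intervals between 1 library and 1 library. TAGLN and CNN2 lie above 1 at both times, and the ACTG1 intervals lie on opposite sides of 1.

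Of the 10 genes 8 averaged 5 CPM or more. At 24 h 0 of these 8 differed by 1.5-fold or more, where 7.23% of all 10595 genes at that level did. At 48 h TAGLN alone did, beside 11% of all genes. The siRNA ratio of TAGLN was larger at 48 h than at 24 h by 0.65 on the log2 scale of CPM plus 1. The other 7 genes differed between the times by -0.32 to 0.38, and the median absolute difference over the 10595 genes was 0.15. These differences were not tested, since each siRNA and time has 1 library.

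Paralogs put the same genes in context, where shares are of the summed CPM of a family. TAGLN made up 8.11% and 7.96% of transgelin CPM with FAT4 siRNA at 24 h and 48 h, against 5.89% and 3.26% with control siRNA. TAGLN2, which held 91.8% to 96.6% of that sum, had a log2 fold change of -0.17 and was not called (edgeR adjusted p = 0.146). CNN3, the acidic calponin, rose by 0.38 beside CNN2 (edgeR adjusted p = 0.000288). The calponin sum was 422 and 365 CPM with FAT4 siRNA, against 325 and 271 CPM with control siRNA. The MYL9 share of regulatory light chain CPM was at most 0.134% in any library. Its nonmuscle counterparts MYL12A and MYL12B rose by 0.41 and 0.29 (edgeR adjusted p = 9.72e-05 and 0.00757). Among tropomyosins TPM4 rose by 0.28 (edgeR adjusted p = 0.00869), and TPM3 and TPM4 together carried most of the family's CPM. Muscle actins other than ACTA2 were at or near the floor, with ACTC1 at 0 in all libraries and ACTG2 at 8 and 4 counts with FAT4 siRNA at 24 h and 48 h, against 14 and 7 with control siRNA.

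SRF itself did not pass the test, with 73.9 and 71.0 CPM with FAT4 siRNA at 24 h and 48 h, against 81.9 and 64.8 CPM with control siRNA (log2 fold change -0.01, edgeR adjusted p = 0.951). Of 8 regulators listed 7 were tested, of which 0 rose and 2 fell, where 11.9% of all genes were called higher and 14.1% lower. ELK3, a ternary complex factor that can repress, fell by 0.69 (edgeR adjusted p = 1.07e-08), and ELK1, an activator of that family, fell by 0.28 (0.0391). The ELK1 call was lost with no filter, with GC and length offsets and in DESeq2. ELK4 had a log2 fold change of 0.03 and SCAI, an inhibitor of MRTF, one of 0.04. The MRTF genes MKL1 and MKL2 had -0.28 (edgeR adjusted p = 0.0740) and 0.21 (0.126). MYOCD, the muscle-restricted cofactor, had 1 count in 1 control library and 0 in the others.

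Of other contractile and actin-binding SRF targets 3 of 22 tested genes were called higher and 5 lower, with a median log2 fold change of -0.18. The share called higher was near the 11.9% of all genes, and 14.1% of all genes were called lower. CNN3 and TPM4 were the highest of them. The lowest were SYNPO2, an actin-bundling protein that fell by 1.26 at 6 and 18 counts with FAT4 siRNA against 25 and 52 with control siRNA, and the myosin light chain kinase MYLK, which fell by 0.98. Immediate early targets of SRF held 1 call among 9, as EGR1 rose by 0.83 (edgeR adjusted p = 7.61e-12), a call that DESeq2 did not make. EGR1 had 40.2 and 110 CPM with FAT4 siRNA at 24 h and 48 h, against 32.5 and 44.6 CPM with control siRNA.

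The counts of the lists that follow stand beside 11.9% of all genes called higher and 14.1% lower. Among genes of monomer binding and filament turnover 4 of 16 rose and 2 fell. The monomer-binding twinfilin TWF1 rose by 0.42 and the cyclase-associated protein CAP2 by 0.39, whereas the profilins PFN2 and PFN1 fell by 0.45 and 0.31. In the list of Arp2/3 and WAVE genes, which build branched networks, 3 of 18 rose and 1 fell, with WASF1 at 0.48, WASF2 at 0.29 and CYFIP1 at -0.28. Of 5 tested nonmuscle myosin II genes 2 rose and 1 fell, and the gene that fell was the heavy chain MYH10, by 0.30. Among focal adhesion partners of vinculin 3 of 16 rose and 4 fell. LIMS1, an adaptor of integrin-linked kinase, rose by 0.63 and the filament elongation factor ENAH by 0.43, whereas the vinculin-binding SORBS3 and the talin TLN2 each fell by 0.51. Counting each gene of these 7 lists once, 16 of 88 rose and 14 fell, with a median log2 fold change of -0.0016, where 11.9% of all genes were called higher and 14.1% lower. DESeq2 called fewer genes in most of these lists, among them 2 higher in filament turnover, 1 higher and 0 lower in Arp2/3 and WAVE, 0 lower in myosin II, and 2 higher and 1 lower among partners of vinculin. The nuclear retained RNAs NEAT1 and MALAT1, which vary with RNA quality, rose by 0.45 and 0.29 in the same libraries. MEG3 (0.22) and KCNQ1OT1 (-0.14), listed beside them, were not called. The part of these RNAs in the results was not tested.

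**Figure D3:**
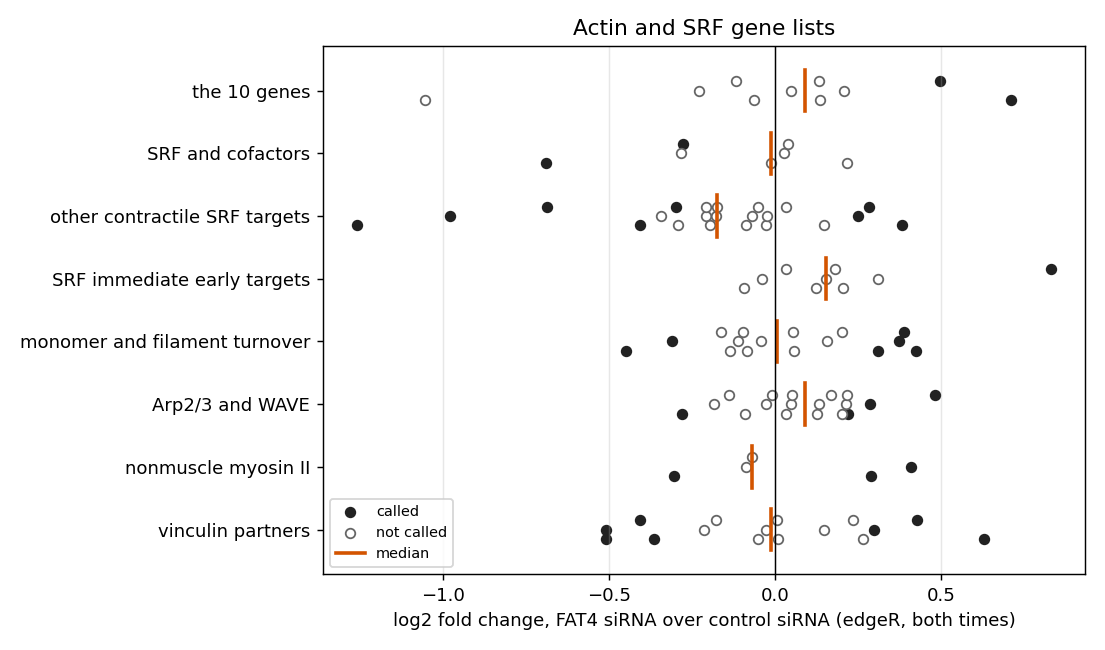
Log2 fold change of FAT4 siRNA over control siRNA from the edgeR fit over both times, 1 point per tested gene, by list. Filled points passed an adjusted p under 0.05, open points did not, and the vertical bars are medians. In the 10 genes the filled points are CNN2 and TAGLN, and in the lists of other actin genes filled points lie on both sides of 0 except among SRF with its cofactors and the immediate early targets.

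The comparison of 48 h with 24 h, made over both siRNAs and on the same 4 libraries, asked what changed with time after transfection. TAGLN, ACTG1, CNN2 and ACTB fell, and no gene of the 10 rose. These were 4 lower and 0 higher of 10 by edgeR at an adjusted p under 0.05, where 12.8% of all genes were called lower and 13.8% higher. At an unadjusted p under 0.05 there were 6, of which 5 were lower and ACTA2 was higher, and DESeq2 called 3 lower, without CNN2, and 0 higher. Without the siRNA term edgeR called 0 of the 10 genes, at log2 fold changes of -0.88 for TAGLN, -0.52 for ACTG1, -0.35 for CNN2 and -0.28 for ACTB. The median log2 fold change of the 10 genes was -0.26, against 0.01 over all genes tested. The Ewing list had a median of -0.26 as well, with 5 of 9 genes called lower and 0 higher, and its part in this result was not tested.

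TAGLN fell by 0.95 on the log2 scale (SE 0.153, edgeR adjusted p = 3.06e-08). The 48 h to 24 h ratio was 0.661 with FAT4 siRNA (0.559 to 0.781) and 0.397 with control siRNA (0.326 to 0.482). ACTG1 fell by 0.52 (SE 0.0885, edgeR adjusted p = 1.29e-07), with ratios of 0.623 with FAT4 siRNA (0.611 to 0.636) and 0.776 with control siRNA (0.764 to 0.789). CNN2 fell by 0.36 (SE 0.104, edgeR adjusted p = 0.00427), with ratios of 0.795 with FAT4 siRNA (0.733 to 0.863) and 0.767 with control siRNA (0.706 to 0.832). ACTB fell by 0.28 (SE 0.0886, edgeR adjusted p = 0.0101), with ratios of 0.789 with FAT4 siRNA (0.777 to 0.801) and 0.861 with control siRNA (0.850 to 0.873). Each of these 4 genes was thus lower at 48 h under both siRNAs. The intervals of FAT4 siRNA and control siRNA did not overlap for TAGLN, ACTG1 and ACTB, and overlapped for CNN2. They cover counting error between single libraries only, and the difference between the siRNAs was not tested. The ratio of ACTB to ACTG1 counts was 1.81 at 48 h against 1.43 at 24 h with FAT4 siRNA, and 1.76 at 48 h against 1.58 at 24 h with control siRNA.

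ACTA2 had a log2 fold change of 0.26 that did not pass the test (SE 0.126, edgeR adjusted p = 0.112). Its ratio of 48 h to 24 h was 1.38 with FAT4 siRNA (1.21 to 1.57) and 1.05 with control siRNA (0.940 to 1.17). TPM2 had -0.24 (edgeR adjusted p = 0.0936), TPM1 -0.08 (0.732) and VCL -0.04 (0.773). The TPM2 ratio was 0.951 with FAT4 siRNA (0.865 to 1.05) and 0.761 with control siRNA (0.699 to 0.829). The counting intervals of the siRNAs did not overlap for TPM2, ACTA2 and VCL, and overlapped for TPM1. At least 1.5-fold apart with FAT4 siRNA were ACTG1 and TAGLN, 2 of the 8 genes above 5 CPM beside 9.92% of all genes at that level. With control siRNA it was TAGLN, 1 of 8 beside 7.25%.

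**Figure D4:**
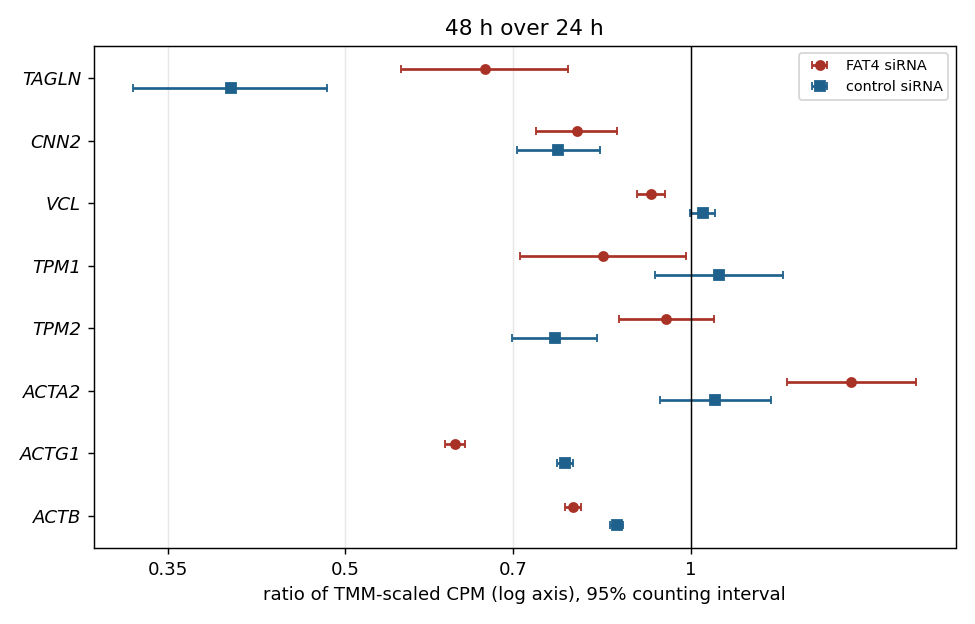
Ratio of 48 h to 24 h in TMM-scaled CPM on a log axis, for FAT4 siRNA (circles) and control siRNA (squares), in the 8 genes above 5 CPM with exact 95% counting intervals. TAGLN, CNN2, ACTG1 and ACTB lie below 1 under both siRNAs, and ACTA2 with FAT4 siRNA lies above 1.

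TAGLN had the widest range of the 10 genes over the 4 libraries, 1.59 on the log2 scale of CPM plus 1, and VCL the narrowest, 0.21. The genes with the pattern most like that of TAGLN were WTIP, UBE2QL1 and CYBASC3, at root mean square differences of 0.0911, 0.102 and 0.137 between centred log2 levels over the 4 libraries. For ACTB they were DDX19A, ZMIZ1 and RABL5, at 0.00459, 0.00541 and 0.00796. Likeness over 4 points among 10595 genes is a description of these libraries.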

How the data were processed

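RNA of A673 cells was measured in 4 libraries made with a TruSeq stranded mRNA kit from TRIzol extracts, per the labels' protocols. The deposited values were raw whole-number counts per gene, and CASAVA 1.8.2, TopHat2, SAMtools, HTSeq and build hg19 are named in the submitters' processing notes. The sources used here do not give the annotation, counting mode or strand setting. Counter entries that name no gene were left out: reads outside genes were 19.5% to 20.5% and ambiguous reads 0.772% to 0.804% of uniquely placed reads, and alignments that were not unique came to 43.1% to 44.6% of that number.

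With edgeR 4.0.16 (R 4.3.3) and TMM scaling, genes were filtered by filterByExpr (minimum count 10, total 15), and a quasi-likelihood model with additive siRNA and time terms was fitted over all 4 libraries, 95.6% of its genes having a GENCODE 29 transcript for length and GC content. Tests were two-sided with Benjamini-Hochberg adjustment over all 13712 genes. The SE was derived from the quasi-likelihood F statistic. Ratios between single libraries carry exact Clopper-Pearson intervals, which like the floor of 3 counts cover counting error only. Alternatives were DESeq2 1.42.0, RLE scaling, other filters, 1-term models, other pseudocounts and splines for GC content and length. The code of the edgeR fit and of the counting intervals was tested on simulated data. Those for the fit held no time effect and the same dispersion for every gene, so they do not measure the error of the p-values here.

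The 10 genes and all lists were chosen with earlier results of these data known. Named beside them were FAT4, all SRF regulators, up to 2 called genes per list and direction with the largest change, paralogs, and the 3 genes nearest in pattern to ACTB and to the gene of widest range. Transcripts and promoters came from a later build than hg19 and were matched by symbol. A further gene list is not reported here.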

Additional observations from a re-analysis of the deposited data

Results flagged for a closer look

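ACTG1 drew attention because its siRNA ratios lay on opposite sides of 1 at the 2 times, each beyond its counting interval. On the log2 scale of CPM plus 1, FAT4 siRNA over control siRNA came to 0.09 at 24 h and -0.22 at 48 h, a difference of -0.32. The difference was not tested, since each siRNA and time has a single library. Over 10595 genes of at least 5 CPM the absolute difference between the times had a median of 0.15 and a 95th percentile of 0.52.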

How the results depend on the processing

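Of 20 fitted changes of the 10 genes, all kept their direction and their side of the threshold with RLE scaling and with no filter, as did the 16 that could be fitted among genes of at least 5 CPM. Under DESeq2, which gave no adjusted p for CNN1 and MYL9, 15 of 16 did. CNN2 at 48 h against 24 h then missed the threshold (-0.37, adjusted p = 0.0812), so that 3 genes were called lower with time. With GC and length offsets TPM2 passed in both comparisons (0.27 for the siRNA, adjusted p = 0.0396, and -0.25 for time, adjusted p = 0.0477), and ACTG1 turned to 0.0421 for the siRNA (adjusted p = 0.757). Models with 1 term called 0 of the 10 genes higher with FAT4 siRNA and 0 lower at 48 h, since by construction the omitted term counts as spread, while no fold change of a called gene turned. They called 0 genes higher and 0 lower for the siRNA in all (1706 at an unadjusted p under 0.05), and 46 higher and 4 lower for time. DESeq2 called 599 genes higher and 635 lower for the siRNA, and 531 higher and 645 lower for time. For the contractile targets, DESeq2 called 1 higher and 3 lower, and EGR1 was not called. Partners of vinculin, with 3 higher and 4 lower calls in the report, had 5 higher with RLE scaling or at 5 CPM or more, 6 higher and 1 lower with the offsets, and 2 higher and 1 lower with DESeq2. SRF regulators had 1 lower call in place of 2 with no filter, with the offsets and with DESeq2. Adjusted p over the alternatives ran from 3.19e-05 to 0.590 for TAGLN and from 1.86e-05 to 0.377 for CNN2 in the siRNA comparison. The time term of the model already sets the siRNAs against each other within each time, and the labels carry no replicate numbers for a further block. With other pseudocounts each log2 ratio moved by less than the mean arm of its counting interval on that scale. With plain library totals 1 of 20 moved further than that, the ratio of ACTB at 24 h. A pseudocount of 5 CPM took the log2 siRNA ratio of TAGLN at 48 h from 1.02 to 0.76. Depth limits MYL9 and CNN1, with at most 17 counts.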

Other observations

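Other actin genes also differed between the times, over both siRNAs. Of 88 tested genes in the 7 lists of actin and SRF biology, 7 rose and 25 fell at 48 h, where 13.8% of all genes were called higher and 12.8% lower, with a median log2 fold change of -0.12 against 0.01 over all genes tested. The genes below were chosen after their values were seen. GSN, the severing protein gelsolin, rose by 0.62 at 48 h (edgeR adjusted p = 1.72e-07). The focal adhesion adaptor PXN fell by 0.56 and TAGLN2 by 0.50. In the Ewing list 2 of 9 genes rose and 3 fell with FAT4 siRNA, where 11.9% of all genes were called higher and 14.1% lower. NKX2-2, a homeodomain factor of Ewing sarcoma, had 52.4 and 38.4 CPM with FAT4 siRNA at 24 h and 48 h, against 76.4 and 86.0 CPM with control siRNA, and fell by 0.85 (edgeR adjusted p = 2.21e-13). PRKCB fell by 0.34, NR0B1 fell by 0.29 and LIPI rose by 0.31. CAV1, the coat protein of caveolae, had 5097 and 4453 CPM with FAT4 siRNA at 24 h and 48 h, against 3709 and 2952 CPM with control siRNA, and rose by 0.53 with FAT4 siRNA (edgeR adjusted p = 1.86e-07).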
